A study of Mus musculus with 72 samples.

Results

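The genes described here are 40 mouse genes that make cholesterol and fatty acids or control that synthesis, out of 36047 mouse genes in each table. They were taken by symbol from a list, found through their Ensembl identifiers in GENCODE M21, and all 40 were present in the tables of all 6 tissues. The list holds 6 genes of sterol sensing and transcription, 7 of the mevalonate pathway, 11 of the steps from squalene to cholesterol, the sterol carrier Stard4, 3 that supply acetyl-CoA and NADPH, 4 of fatty acid synthesis, 6 of elongation and desaturation and 2 of glycerolipid metabolism. The rule goes by symbol, and the list was drawn up with earlier results of these data known.

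The mice carried the EGFR DEL19 transgene, a human epidermal growth factor receptor with an activating deletion, and had formed lung tumours during 25 days of doxycycline. They then received 1 of 3 genetic circuits into a vein, at 10 mg/kg every 2 days for 7 injections, and tissues were taken on day 14. CMV-scrR was the control circuit, with a scrambled RNA. CMV-siRE encodes an siRNA directed at EGFR. The CMV-GE11-siRE circuit adds GE11, a peptide that binds EGFR. Every animal therefore had the transgene, doxycycline and a CMV-driven circuit, and no untreated or tumour-free animal was part of the comparison. Lung, liver, kidney, spleen, thymus and tumour had 4 libraries for each circuit, 72 in all. The labels do not say whether the libraries of a group came from separate animals, nor give sex, age or the promoter that drives the transgene, so a p-value measures the spread between these libraries, which may be technical.

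Cholesterol and fatty acid synthesis start from the same acetyl-CoA and share a control system. SREBP proteins, made from Srebf1 and Srebf2, are bound to the escort protein Scap. The Insig proteins hold this pair in the endoplasmic reticulum while sterols are plentiful. When sterols fall, Scap escorts SREBP out to be cut, and the cut part goes to the nucleus. SREBP-2 acts mainly on the genes of sterol synthesis, SREBP-1c mainly on those of fatty acid synthesis, and ChREBP, made from Mlxipl, adds a response to sugar. The liver is a main site of both pathways, adipocytes make fatty acids too, and alveolar type II cells of the lung use the fatty acid branch for surfactant lipids.

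The promoters of 33 of the 40 members were in the RefSeq table of GRCm38.p6, in 44 windows, since a gene can have several starts. The 250 bases before each start were searched on both strands for TCACNCCAC, a form of the sterol regulatory element that SREBP binds, for CCAAT, the box of its partner NF-Y, and for CACGTG, an E-box. A CCAAT on one strand can share bases with a CCAAT on the other. TCACNCCAC was in 2 of the 44 windows (4.55%), those of Hmgcs1 and of 1 start of Mlxipl, and in 1.05% of all 32851 windows in the table. CCAAT was in 28 windows (63.6%), from 27 genes, against 33.8% of all windows. CACGTG was in 7 windows (15.9%), against 6.02% of all. A match describes letters only, and other forms of these elements were not searched for.

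Of these promoters, 5 are shown, each as the 250 bases before the RefSeq start, 5′ to 3′ on the strand of the gene. Srebf1 (chr11:60222582-60222831, minus strand), Insig2 (chr1:121332590-121332839, minus strand), Fasn (chr11:120824548-120824797, minus strand) and Mvd (chr8:122443423-122443672, minus strand) are shown because they passed the test in liver, tumour or spleen. Hmgcs1 (chr13:119690101-119690350, plus strand) is shown because it holds both the sterol regulatory element and CCAAT boxes, as 0.326% of all windows do. None of the 5 windows overlaps an annotated exon of GENCODE M21, and that of Mvd lies in an intron of the gene Gm20388 on the other strand. Capitals mark CCAAT, or ATTGG where the box is on the other strand, and in Hmgcs1 also the sterol regulatory element.
Srebf1: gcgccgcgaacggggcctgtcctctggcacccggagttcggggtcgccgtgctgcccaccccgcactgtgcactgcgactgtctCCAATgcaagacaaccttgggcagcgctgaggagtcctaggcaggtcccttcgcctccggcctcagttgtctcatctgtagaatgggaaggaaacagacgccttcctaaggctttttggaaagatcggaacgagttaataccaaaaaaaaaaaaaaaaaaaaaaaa
Insig2: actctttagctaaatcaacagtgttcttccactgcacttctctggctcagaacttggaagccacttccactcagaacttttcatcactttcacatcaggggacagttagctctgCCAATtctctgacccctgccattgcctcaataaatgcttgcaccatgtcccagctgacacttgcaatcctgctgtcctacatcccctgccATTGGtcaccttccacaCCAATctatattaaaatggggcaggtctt
Fasn: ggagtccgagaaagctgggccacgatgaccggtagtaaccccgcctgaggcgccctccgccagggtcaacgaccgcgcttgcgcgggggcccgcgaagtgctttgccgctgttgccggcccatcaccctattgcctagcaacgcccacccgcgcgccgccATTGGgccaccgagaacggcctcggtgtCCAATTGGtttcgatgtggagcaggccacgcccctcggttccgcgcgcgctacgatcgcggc
Mvd: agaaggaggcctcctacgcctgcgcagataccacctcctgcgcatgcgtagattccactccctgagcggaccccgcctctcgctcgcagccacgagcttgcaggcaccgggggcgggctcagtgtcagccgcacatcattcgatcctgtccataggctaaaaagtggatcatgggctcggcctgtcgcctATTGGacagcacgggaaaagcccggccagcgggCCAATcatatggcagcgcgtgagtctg
Hmgcs1: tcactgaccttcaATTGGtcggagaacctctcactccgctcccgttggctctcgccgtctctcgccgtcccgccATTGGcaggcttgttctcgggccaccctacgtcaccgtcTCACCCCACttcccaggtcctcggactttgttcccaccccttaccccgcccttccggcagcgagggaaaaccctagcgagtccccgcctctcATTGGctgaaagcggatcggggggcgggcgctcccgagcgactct
In Hmgcs1 the sterol regulatory element lies 137 to 129 bases before the start, between CCAAT boxes at 176 to 172 and at 45 to 41 bases. The first bases after the RefSeq start were found in a GENCODE M21 transcript for 36 of the 44 windows, and not for that of Hmgcs1. Its distances hold for the RefSeq start only. Fasn has boxes at 62 to 58 bases and, on the other strand, at 59 to 55 bases, so they share letters, and a further box at 90 to 86 bases. Srebf1 and Insig2 each had 3 windows, and the one shown is that of their most upstream start. The only CCAAT in the Srebf1 window shown lies 166 to 162 bases before the start. Of the other Srebf1 windows, one (chr11:60210472-60210721) held a CCAAT at 30 to 26 bases on the other strand and one held none of the 3 motifs, as did the 2 other windows of Insig2.

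Values are normalised values per gene, scaled by the authors within each tissue. Column totals were 1.69e+07 to 2.14e+07 in the 5 organs and 5.87e+06 to 4.38e+07 in the tumours, and 15523 to 21522 genes had a value above 0. As read counts could not be recovered, the depth behind each value is unknown and no counting interval is given. In the tumours the mitochondrial genes took 63.1% to 71.4% of the total with CMV-scrR, 45.0% to 73.1% with CMV-siRE and 8.04% to 37.9% with CMV-GE11-siRE. CMV-GE11-siRE replicate 4 stood apart in kidney and thymus, where these genes took 3.69% and 0.558% of its total, against 9.60% to 12.7% and 1.64% to 1.92% in the other 11 libraries of those tissues. Human EGFR, the target of the siRNA, was 1992 to 4025 in tumours with CMV-scrR, 452 to 1324 with CMV-siRE and 39.2 to 132 with CMV-GE11-siRE. As bulk tissue was measured, fewer cells of a type and less RNA per cell cannot be told apart in any of these values.

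In the control libraries the liver led nearly all members. To compare genes and tissues, the values of CMV-scrR were divided by exon length and scaled to the library total without mitochondrial genes. On this scale 37 of the 40 members had their highest median in liver, 36 of them with all 4 liver libraries above all 4 of the next tissue. Stard4, which carries sterols through the cytosol, was the exception among these, at 19.1 in liver and 18.8 in kidney. Srebf2 was highest in spleen (49.7, against 43.9 in thymus, with overlap), the malic enzyme gene Me1 in kidney (74.7, against 51.3 in liver, without overlap) and the desaturase gene Scd2 in lung (194, against 150.3 in thymus, with overlap). These are levels, as a description, and the tables were normalised separately. The same counts were not made over all genes, so the counts above are not read as particular to the members.

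**Figure D1:**
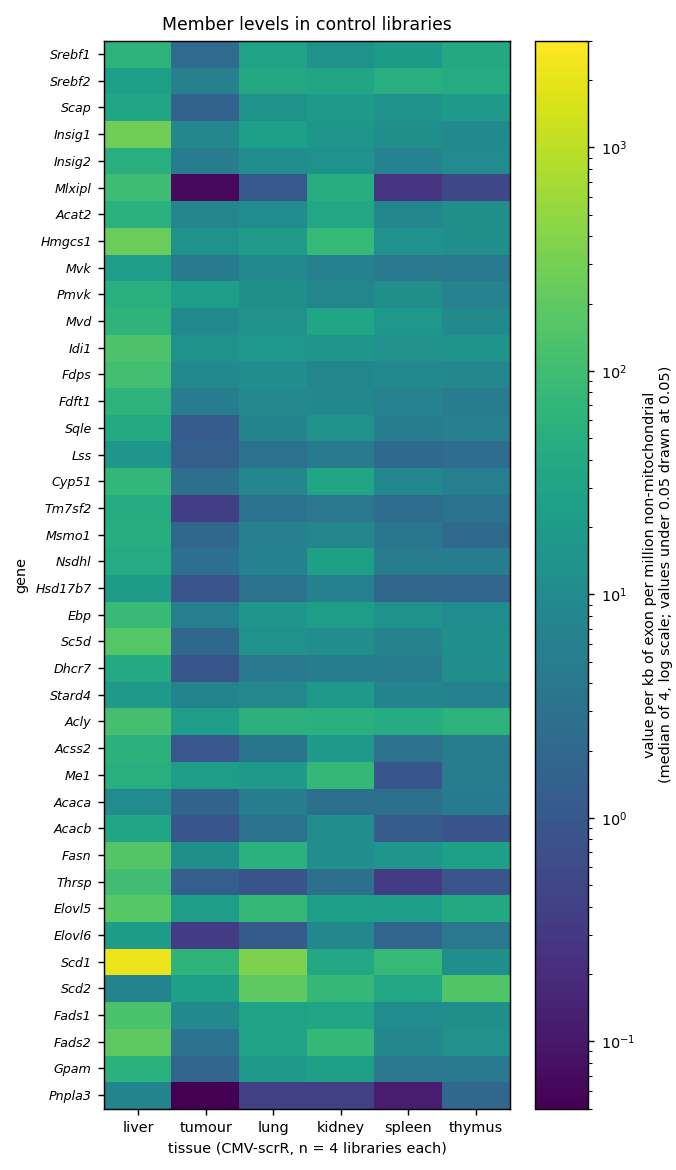
Level of each of the 40 members (rows) in the CMV-scrR libraries of the 6 tissues (columns), as the median of 4 libraries of the value per kb of exon, scaled to the library total without mitochondrial genes, on a logarithmic colour scale. Liver is brightest for 37 of 40 members, and Scd1 in liver, at 2191, is the highest level shown.

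The most abundant member was Scd1 in liver, the desaturase that makes oleate from stearate, at 2195 ± 222 on this scale (mean, SD, n = 4), against 359 ± 59.6 in lung and 83.9 ± 44.3 in tumour. The contrast of liver with the next tissue was widest for Thrsp, a lipogenic regulator of liver and fat, at a median of 104 in liver and 2.87 in kidney. Mlxipl had 99.9 in liver, 46.5 in kidney and 1.05 in lung, and 0.065 in tumour. Scd2 had another order, at 7.31 in liver, 26.4 in tumour, 76.4 in kidney and 194 in lung. Fasn, the fatty acid synthase, had 156 in liver, 55.2 in lung and 12.1 in tumour. Pnpla3, a lipase of lipid droplets, was listed at 0 in 3 of the 4 control tumours and was not tested in tumour.

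The circuits were compared in each tissue with limma on log2(value + 1), so that fold changes of low genes are understated, and a gene passed at a Benjamini-Hochberg adjusted p under 0.05 over all genes tested. Members passed in liver, spleen and tumour, and in no comparison of lung, kidney or thymus. CMV-siRE and CMV-GE11-siRE were each set against the same 4 CMV-scrR libraries, so those comparisons are not independent of each other.

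**Figure D2:**
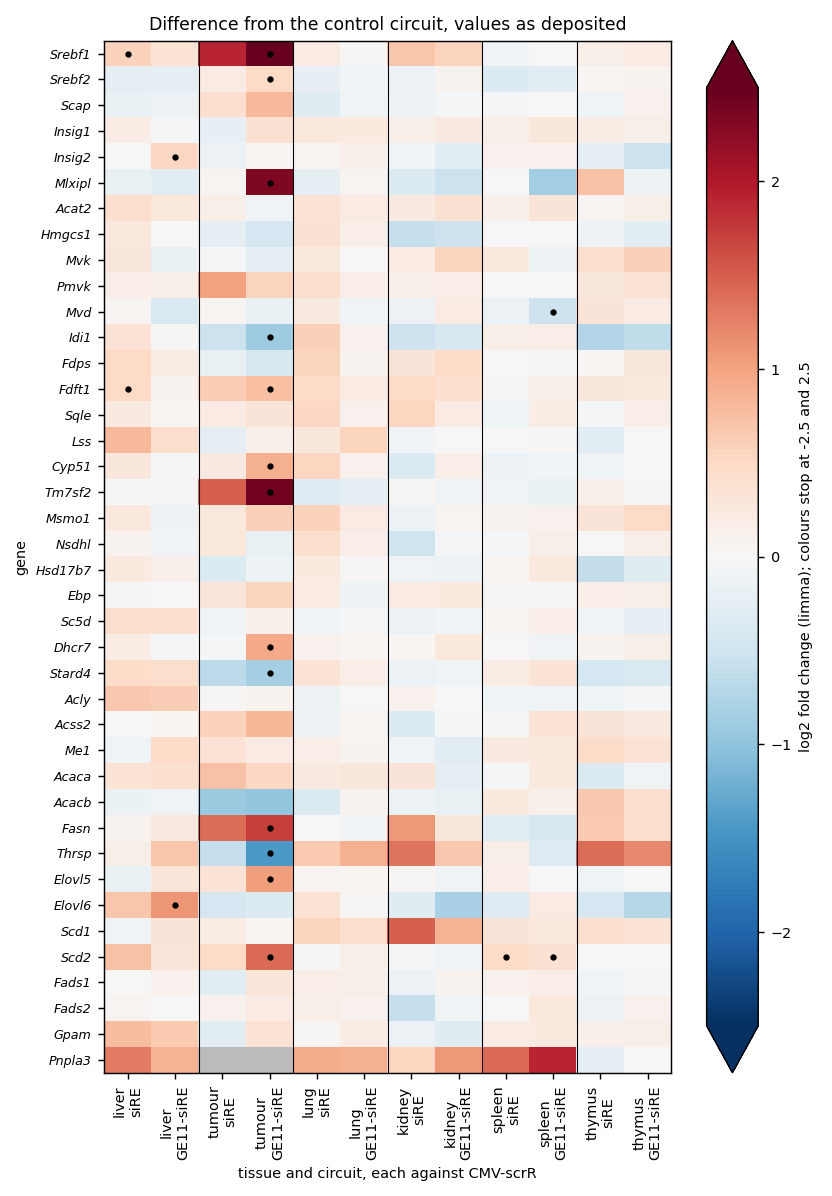
Log2 fold change of each of the 40 members (rows) for CMV-siRE and CMV-GE11-siRE against CMV-scrR in 6 tissues (columns), n = 4 libraries a group; red is higher, blue lower than the control, grey was not tested, and a black dot marks an adjusted p under 0.05. Most dots, 13, lie in the tumour column of CMV-GE11-siRE, with Srebf1 at 3.45 the largest difference there.

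In liver with CMV-siRE most members lay above the control, and few passed. Of the 40 members 2 rose, Srebf1 and the squalene synthase gene Fdft1, and none fell, 5% of the members beside 4.04% of all 14484 genes tested. At an unadjusted p under 0.05 there were 15 members (20.0% of all genes), and 28 of 40 lay above 0, with a median of 0.21 against 0.00 for all genes. All 4 CMV-siRE libraries lay above all 4 controls in 14 members (6.10% of all genes) and below them in 1, Srebf2 (6.59%). The number that rose was 11 in a fit of only those 8 libraries, 10 when CMV-GE11-siRE replicate 1 was left out and 5 when its replicate 4 was, libraries that enter only through the shared estimate of the spread. It was 3 without CMV-scrR replicate 4 and 0 or 1 without any 1 of the other 9 libraries.

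Srebf1 (chromosome 11, 60199089 to 60222581, minus strand, GRCm38) had liver values of 5712, 5958, 7391 and 7843 with CMV-scrR, 8750.4, 10985, 11767 and 8537 with CMV-siRE and 7522, 9235, 9647 and 7539.9 with CMV-GE11-siRE, for replicates 1 to 4 in that order, as for all values below. It was 0.57 ± 0.14 (log2, SE) higher with CMV-siRE than with CMV-scrR (adjusted p = 0.0336), and all 4 CMV-siRE libraries lay above all 4 controls. The call was lost without CMV-scrR replicate 1 or 2 or CMV-siRE replicate 2 or 3. With CMV-GE11-siRE the difference was 0.34 (adjusted p = 0.176), with 2 of its libraries inside the range of the controls. Srebf2, the other SREBP gene, had 3419.6, 3392, 3372 and 4061 with CMV-scrR, 3091, 2748, 2971 and 3234 with CMV-siRE and 3179.9, 2759.6, 3787 and 2496 with CMV-GE11-siRE. Its CMV-siRE libraries all lay below the controls, by -0.24 ± 0.12, which did not pass (adjusted p = 0.27).

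Of the genes for the Insig proteins, which hold SREBP back, and for its escort Scap, Insig2 passed in liver with CMV-GE11-siRE. Insig1 and Scap did not pass. The differences between these genes were not tested. Insig2 (chromosome 1, 121304353 to 121332589, minus strand) had 3001, 3981, 3928 and 3087 with CMV-scrR, 3814, 3452, 3551 and 3093 with CMV-siRE and 4907, 5615, 3981 and 5551 with CMV-GE11-siRE. It rose with CMV-GE11-siRE, by 0.52 ± 0.13 (adjusted p = 0.0366), and was 0.52 higher than with CMV-siRE, which did not pass (adjusted p = 0.361). Its lowest CMV-GE11-siRE library, replicate 3, was above the highest control, CMV-scrR replicate 2, by less than 1 unit, and the call was lost without any 1 of 7 libraries. Insig1, which is itself a target of SREBP, had 14541, 10903, 18443 and 21615 with CMV-scrR, 20096, 17448, 17145 and 17624 with CMV-siRE and 18237, 14441, 18768 and 11701 with CMV-GE11-siRE, and the 3 groups overlapped. Scap and Mlxipl differed from the control by -0.18 and -0.19 under CMV-siRE and by -0.15 and -0.25 with CMV-GE11-siRE, and did not pass.

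All 7 members of the mevalonate pathway, which turns acetyl-CoA into farnesyl diphosphate, lay above 0 in liver with CMV-siRE, with a median of 0.29 and a range of 0.07 to 0.50. None of them passed. Fdps, the farnesyl diphosphate synthase gene, was at 0.50 (adjusted p = 0.081), and the isomerase gene Idi1 at 0.36 (adjusted p = 0.123). With CMV-GE11-siRE 4 of the 7 were above 0, with a median of 0.03, and against CMV-siRE all 7 were below 0, with a median of -0.32. No mevalonate gene passed in these comparisons either.

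Fdft1, which commits farnesyl diphosphate to sterols, had 5087, 5211, 4825 and 6280.4 with CMV-scrR, 6989.8, 7526, 7808 and 7711 with CMV-siRE and 7205, 5721, 5561 and 4487 with CMV-GE11-siRE. With CMV-siRE it rose by 0.49 ± 0.12 (adjusted p = 0.0397), with all 4 libraries above the controls. The call was lost without any 1 of 9 of the 12 libraries, at an adjusted p of up to 0.108 in limma. Sqle, the squalene epoxidase gene and a rate-limiting step, had 4209, 3740.1, 4785 and 5074 with CMV-scrR, 5127, 5098, 5082 and 5497 with CMV-siRE and 6049, 4365, 4203 and 3895 with CMV-GE11-siRE. Its CMV-siRE libraries lay in a narrow range above all controls, at 0.23 ± 0.13, which did not pass (adjusted p = 0.333). Of the 11 genes from squalene to cholesterol 9 lay above 0 with CMV-siRE, with a median of 0.24, and the lanosterol synthase gene Lss was highest at 0.82 ± 0.23 (adjusted p = 0.0651). With CMV-GE11-siRE 7 of the 11 lay above 0, with a median of 0.04.

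Of the fatty acid branch, Elovl6, which elongates palmitate to stearate (chromosome 3, 129532355 to 129638495, plus strand), had 2301, 2721, 2805 and 3213 with CMV-scrR, 4676, 4196, 4692 and 4234 with CMV-siRE and 11539, 5847, 5294 and 3346 with CMV-GE11-siRE. It rose with CMV-GE11-siRE, by 1.10 ± 0.26 (adjusted p = 0.0322), and all 4 libraries lay above the controls, with replicate 1 far above the rest. Without that replicate the difference was 0.78 and still passed, and the call was lost without any 1 of 5 other libraries, at an adjusted p of up to 0.0828 in limma. With CMV-siRE Elovl6 was at 0.70, also without overlap, and did not pass (adjusted p = 0.149).

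The same CMV-GE11-siRE replicate 1 was the highest of the 12 liver libraries in several lipogenic members. Scd1 had 191616, 192777, 224934 and 215743 with CMV-scrR, 186328, 166020, 217710 and 214128 with CMV-siRE and 451947, 199959, 316920 and 152361 with CMV-GE11-siRE, and Fasn had 27678, 27081, 42510.2 and 37259.6 with CMV-scrR, 33218, 35684, 35838 and 35699 with CMV-siRE and 51282, 42558, 36526 and 27854 with CMV-GE11-siRE. Acaca, the acetyl-CoA carboxylase gene of the cytosol, had 2573, 3263, 4367 and 3374 with CMV-scrR, 4647, 4600.4, 4089 and 3637 with CMV-siRE and 6684, 3614, 4924 and 3162 with CMV-GE11-siRE. In these 3 genes the CMV-GE11-siRE group overlapped both other groups and none passed. Scd1 was at 0.32, Fasn at 0.23 and Acaca at 0.40 against the control. Thrsp had 1942, 4487, 6931 and 4292 with CMV-scrR, 4080.1, 5003, 5353 and 3485 with CMV-siRE and 9164, 7998, 5129 and 4761 with CMV-GE11-siRE, a spread within CMV-scrR of 1942 to 6931, and was at 0.70 ± 0.32 (adjusted p = 0.227).

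**Figure D3:**
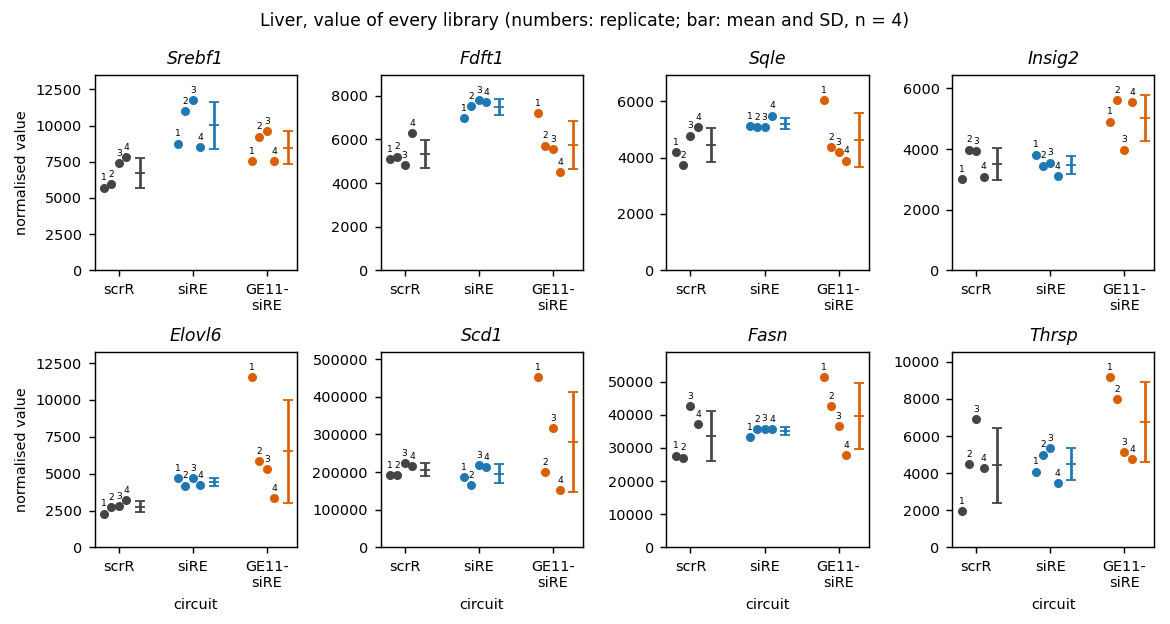
Normalised value (vertical axes, from 0) of 8 members in each liver library by circuit (horizontal axes); points are libraries with their replicate number, bars the mean and SD of 4. The CMV-siRE points of Srebf1 and Fdft1 lie above every CMV-scrR point, and CMV-GE11-siRE replicate 1 is the highest point in Elovl6, Scd1, Fasn and Thrsp.

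Acly, which makes cytosolic acetyl-CoA from citrate, was at 0.68 under CMV-siRE and at 0.61 under CMV-GE11-siRE (adjusted p = 0.0789 and 0.108). Gpam, the first step of glycerolipid synthesis, was at 0.77 and 0.65, and Pnpla3 at 1.28 and 0.84, and neither passed. In CMV-GE11-siRE against CMV-scrR 2 of 40 members passed, both higher, beside 4.23% of all genes, and 9 had an unadjusted p under 0.05 (20.7% of all genes). In CMV-GE11-siRE against CMV-siRE none passed (0.00690% of all genes), while 9 had an unadjusted p under 0.05 (7.66% of all genes).

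Markers of other cells were read beside these values. The summed level of 9 adipocyte markers in liver was 242 to 453 with CMV-scrR, 249 to 317 with CMV-siRE and 220.2 to 405 with CMV-GE11-siRE, and Adipoq, which defines adipocytes, was at 0 in 10 of the 12 libraries and at most 2.17. The 8 hepatocyte markers summed to 1395010 to 2456130, 1661820 to 1879330 and 1815000 to 1999810, and none passed. With CMV-siRE, 1 of 3 tested adipocyte markers, 2 of 3 erythroid markers and 1 of 6 macrophage markers fell, and 1 of 4 endothelial markers rose. These counts stand beside 4.04% of all genes. The summed macrophage level overlapped, at 9699 to 22121 with CMV-scrR and 9123 to 20483 with CMV-siRE. With adipocyte markers, Dbp, Ddx3y or the mitochondrial share in the model no liver member passed against CMV-scrR, while the differences of the members called kept their direction. Over these 4 covariates Elovl6 lay between 0.95 and 1.11 in place of 1.10, Insig2 between 0.39 and 0.50 in place of 0.52, Srebf1 between 0.50 and 0.63 in place of 0.57 and Fdft1 between 0.36 and 0.50 in place of 0.49, the lowest of Fdft1 with the adipocyte markers. The part of these cells in the liver differences was not tested.

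In tumours with CMV-GE11-siRE, 10 of the 39 members tested rose and 3 fell against CMV-scrR, beside 22.1% and 19.8% of all 14044 genes (41.9% in either direction). The share among the members, 33.3%, was below that of all genes. Srebf1, the sterol reductase gene Tm7sf2, Mlxipl, Fasn, Scd2, the elongase gene Elovl5, Dhcr7, Cyp51, Fdft1 and Srebf2 rose, while Thrsp, Idi1 and Stard4 fell. At an unadjusted p under 0.05 there were 14 members (50.5% of all genes). The members' median difference was 0.30, against 0.05 for all genes. No member passed in CMV-siRE against CMV-scrR (0.256% of all genes) or in CMV-GE11-siRE against CMV-siRE (0.0214%), where 7 and 6 had an unadjusted p under 0.05 (21.4% and 26.2% of all genes). Leaving out CMV-GE11-siRE replicate 1 gave a count of 7, and leaving out its replicate 3 or 4 a count of 8. With no filter on low values 9 passed, and the calls of Mlxipl, Cyp51, Fdft1 and Srebf2 were lost.

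Srebf1 had the largest difference of the 39 members in this comparison. Its tumour values were 125, 147, 117 and 94.1 with CMV-scrR, 1132, 225, 226 and 710.4 with CMV-siRE and 1201, 1262, 1969 and 984 with CMV-GE11-siRE. It rose by 3.45 ± 0.44 with CMV-GE11-siRE (adjusted p = 0.000411), about 10.9-fold, and passed without any 1 of the 12 libraries. With CMV-siRE all 4 libraries also lay above the controls, at 1.91 ± 0.44, but did not pass (adjusted p = 0.0649): replicate 1 lay inside the CMV-GE11-siRE range, replicate 4 below it, and replicates 2 and 3 nearer to the controls. Srebf2 moved less, with 522, 369, 419 and 347 with CMV-scrR, 545, 395, 416 and 551 with CMV-siRE and 583, 607, 599 and 538 with CMV-GE11-siRE, and rose by 0.51 ± 0.19 (adjusted p = 0.0444), a call that was lost without any 1 of 7 libraries.

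Mlxipl was near the lower limit of the data, at 3.08, 2.66, 3.78 and 10.6 with CMV-scrR, 11.5, 7.24, 0 and 8.46 with CMV-siRE and 21.7, 43.3, 32.2 and 14.7 with CMV-GE11-siRE. It rose by 2.33 ± 0.80 with CMV-GE11-siRE (adjusted p = 0.0311) without overlap, and no longer passed with a pseudocount of 0.1 or without any 1 of 6 libraries. Insig1 had 232, 336, 246 and 242 with CMV-scrR, 231, 166, 201 and 339 with CMV-siRE and 387, 268, 425 and 309 with CMV-GE11-siRE, with overlap between all groups. Its difference with CMV-GE11-siRE, 0.39 ± 0.25, did not pass (adjusted p = 0.218), and neither did those of Scap (0.81) and Insig2 (0.04).

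Of the 7 mevalonate genes, Idi1 fell and none rose, beside 19.8% and 22.1% of all genes. Of the 7, 6 lay below 0, with a median of -0.22 against 0.05 for all genes. Idi1, which makes the reactive isoprene unit of the pathway, had 458, 629.7, 479.7 and 435 with CMV-scrR, 219.7, 391, 461 and 342 with CMV-siRE and 310.1, 285, 219.5 and 266 with CMV-GE11-siRE. All 4 CMV-GE11-siRE libraries lay below the controls, by -0.88 ± 0.24 (adjusted p = 0.00959). Stard4, another SREBP target, had 338, 311, 524 and 376 with CMV-scrR, 202, 289, 369 and 159.8 with CMV-siRE and 203, 262, 199 and 193 with CMV-GE11-siRE and fell by 0.83 ± 0.27 (adjusted p = 0.0232), also without overlap. The Stard4 call was lost without CMV-scrR replicate 3 or CMV-GE11-siRE replicate 1, 3 or 4.

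Among the 11 genes from squalene to cholesterol, 4 rose and none fell, beside 22.1% and 19.8% of all genes. Tm7sf2 (chromosome 19, 6062821 to 6068373, minus strand) had 10.97, 15.9, 18.2 and 18.4 with CMV-scrR, 100.5, 27.9, 14.7 and 102 with CMV-siRE and 88.8, 77.3, 109 and 75.4 with CMV-GE11-siRE, and rose by 2.40 ± 0.53 (adjusted p = 0.00358). Its CMV-siRE replicates 1 and 4 were as high as the CMV-GE11-siRE libraries and replicates 2 and 3 were not. Dhcr7, the last reductase of the pathway, rose by 0.96 ± 0.31, the lanosterol demethylase gene Cyp51 by 0.88 ± 0.33 and Fdft1 by 0.76 ± 0.27, the latter pair with overlap between groups. The Cyp51 call was lost without any 1 of 8 libraries, that of Fdft1 without any 1 of 5, and that of Dhcr7 without CMV-GE11-siRE replicate 1 or 4. Sqle had 54.7, 82.5, 75.4 and 52.9 with CMV-scrR, 75.1, 80.7, 53.2 and 96.9 with CMV-siRE and 123, 44.5, 66.3 and 122 with CMV-GE11-siRE, which overlapped and did not pass (0.32).

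In the fatty acid branch the members went different ways. Fasn (chromosome 11, 120805846 to 120824547, minus strand) had 822, 448, 1825 and 1831 with CMV-scrR, 6023, 1308, 3279 and 2348 with CMV-siRE and 5395, 3138, 3571 and 2480 with CMV-GE11-siRE and rose by 1.73 ± 0.49 (adjusted p = 0.0127), without overlap. Acaca, the step before it, had 222, 288, 358 and 296 with CMV-scrR, 755, 237, 537 and 539 with CMV-siRE and 446, 444, 406 and 351 with CMV-GE11-siRE and was at 0.51 (adjusted p = 0.177). Thrsp, a low gene here, had 28.6, 33.2, 27.4 and 20.7 with CMV-scrR, 24.4, 16.9, 16.1 and 15.6 with CMV-siRE and 15.1, 5.40, 10.3 and 8.92 with CMV-GE11-siRE and fell by 1.44 ± 0.43 (adjusted p = 0.0162). All 4 of its CMV-GE11-siRE values lay below every other tumour library, and the call was lost only without CMV-GE11-siRE replicate 2 among the 12 libraries left out in turn.

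Of the 6 genes of elongation and desaturation 2 rose, Scd2 and Elovl5, and none fell, beside the same 22.1% and 19.8% of all genes. Scd2 had 1162, 1276, 1616 and 1285 with CMV-scrR, 2288, 1236, 1310.4 and 3379 with CMV-siRE and 4061, 4521, 3704 and 2278 with CMV-GE11-siRE, and rose by 1.41 ± 0.31 (adjusted p = 0.00336) without overlap. Scd1, its more abundant relative, had 5967, 2456, 3607 and 2827 with CMV-scrR, 4958, 1303, 6366 and 6099 with CMV-siRE and 2973, 4776, 4673 and 2574 with CMV-GE11-siRE, with groups that overlapped throughout and a difference of 0.05 ± 0.45 (adjusted p = 0.941). Elovl5, which elongates polyunsaturated fatty acids, had 743, 789.6, 749.7 and 644 with CMV-scrR, 762, 901, 568 and 1883 with CMV-siRE and 1910.2, 1574, 1423 and 1190.1 with CMV-GE11-siRE, and rose by 1.04 ± 0.30 (adjusted p = 0.0132). Elovl6 stayed low in all groups, with 26.7, 33.99, 9.66 and 11.2 with CMV-scrR, 13.4, 17.5, 7.79 and 15.4 with CMV-siRE and 12.4, 16.2, 11.6 and 15.9 with CMV-GE11-siRE, and was at -0.34 (adjusted p = 0.612). The desaturase genes Fads1 and Fads2 were at 0.30 and 0.20 and did not pass.

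The direction of many tumour differences depended on the scaling. Scaled to the column total, 37 of 39 members passed, all higher, and all 12 members below 0 lay above it, but the median of all genes was then 2.11 in place of 0.05, with 11377 genes higher and 58 lower. Scaled to the total without mitochondrial genes, 21 passed, all higher, with a median of all genes of 0.80. Each scaling divides all genes of a library by the same factor. Distances from the median of all genes therefore stay nearly equal by construction, apart from the added 1, and are given as a description only. From that median Srebf1 was at 3.39, 3.40 and 3.42 under the deposited values, the total without mitochondrial genes and the column total. Scd2 was at 1.36, 1.37 and 1.39, Idi1 at -0.94, -0.92 and -0.91, and Thrsp at -1.49, -1.53 and -1.58. Members above that median were 25, 26 and 27 of 39. The falls of Idi1, Stard4 and Thrsp are falls relative to the median of all genes, and scaled to the column total these 3 genes were at 1.20, 1.25 and 0.53 above the control.

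**Figure D4:**
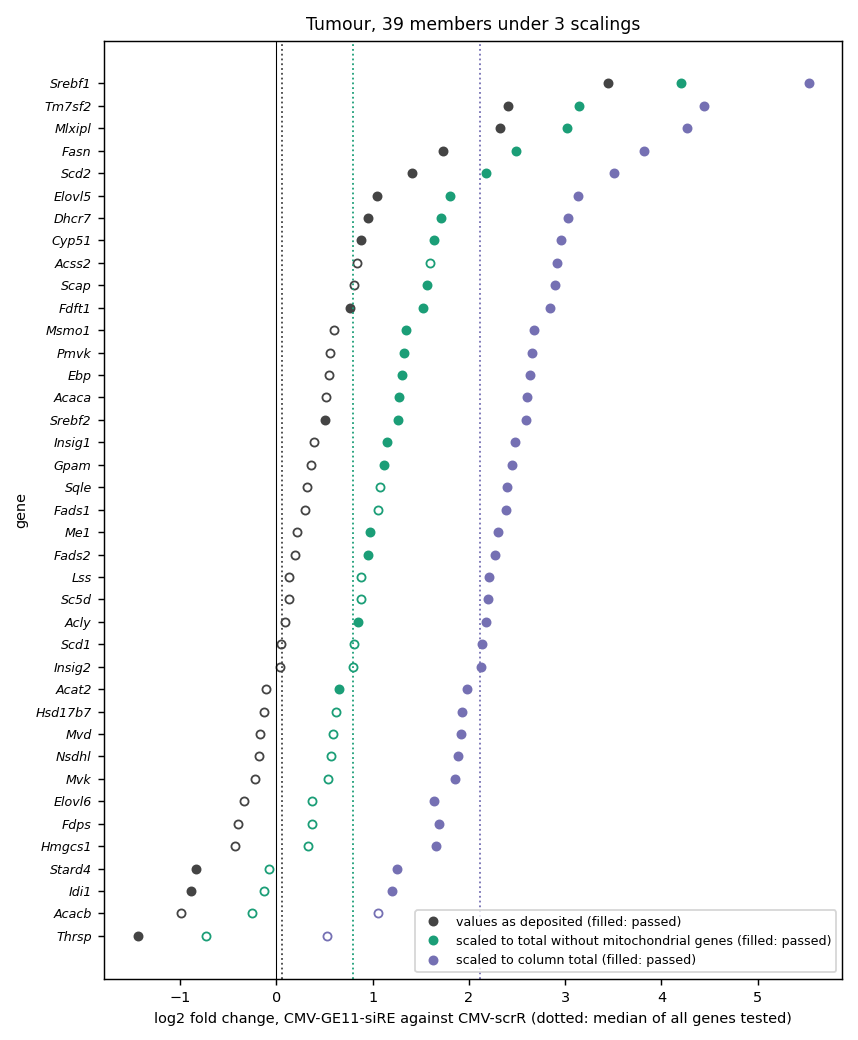
Log2 fold change (horizontal axis) of CMV-GE11-siRE against CMV-scrR in tumour for 39 members (vertical axis) under 3 scalings, with filled points for an adjusted p under 0.05 and dotted lines at the median of all genes tested under each scaling. By construction each scaling shifts the members together with that median, from 0.05 to 0.80 and 2.11, and Srebf1 stays furthest right and Thrsp furthest left.

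The mitochondrial share moved with the tumour groups without overlap between CMV-scrR and CMV-GE11-siRE, so circuit and share cannot be told apart. With the share as a covariate no gene passed in that comparison, and Srebf1 was at 1.52 (adjusted p = 0.99 in limma). Members above 0 were then 22 of 39 in place of 27: 10 went from above to below 0, Cyp51 among them, and 5 from below to above. Within CMV-siRE the share was 45.0% in replicate 1, 61.3% in replicate 2, 73.1% in replicate 3 and 61.0% in replicate 4. Cell type markers moved too. The 8 alveolar type II markers summed to 53056 to 135241 with CMV-scrR, 120227 to 698421 with CMV-siRE and 354064 to 556862 with CMV-GE11-siRE, and 7 of them rose. The 4 epithelial markers, all of which rose, summed to 2238 to 6194, 7914 to 10439.7 and 8791 to 11125. The 8 hepatocyte markers summed to 134 to 1062, 39.6 to 147 and 12.3 to 23.5, and Alb fell by 5.55. Of 6 macrophage markers 3 fell. These counts stand beside the 41.9% of all genes that passed in CMV-GE11-siRE against CMV-scrR. Other lists moved as well. The 6 kidney tubule markers summed to 184 to 488 with CMV-scrR, 214 to 982 with CMV-siRE and 588 to 984 with CMV-GE11-siRE. The 4 endothelial markers summed to 1266 to 4841, 1275 to 2658 and 1044 to 1821. The part of these cells in the members' differences was not tested.

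In lung with CMV-siRE most members lay above the control, and none passed. Of the 40 members 31 lay above 0, with a median of 0.23 against 0.00 for all genes, and 18 had an unadjusted p under 0.05 (17.6% of all genes), while none of them passed beside 1.41% of all 16165 genes. All 4 CMV-siRE libraries lay above the controls in 11 members (5.41% of all genes) and below them in 1, Scap (7.13%). All 7 mevalonate genes were above 0, between 0.23 and 0.59, as were 9 of 11 from squalene to cholesterol. In CMV-GE11-siRE against CMV-scrR no gene of the table passed, and 3 members had an unadjusted p under 0.05 (7.90% of all genes). In CMV-GE11-siRE against CMV-siRE no member passed (0.0619% of all genes) and 8 had an unadjusted p under 0.05 (9.97% of all genes).

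Idi1 was nearest to the threshold, and it and Sqle are named here after their values were seen. Idi1 had lung values of 1166, 1145, 1314 and 1367 with CMV-scrR, 2044, 1829, 1889.6 and 1752 with CMV-siRE and 933, 1561, 1440 and 1539.7 with CMV-GE11-siRE. It was at 0.59 ± 0.14 with CMV-siRE (adjusted p = 0.0521), with no overlap with the controls, and passed in a fit of only those 8 libraries, under both other scalings, and without CMV-GE11-siRE replicate 1 or replicate 4. Idi1 did not pass with a pseudocount of 0.1, no filter, a replicate block, any of the covariates, or any other library left out. Sqle had 701, 634, 816 and 974 with CMV-scrR, 1173, 1073, 1145 and 1004 with CMV-siRE and 612, 786, 1088 and 894 with CMV-GE11-siRE, and was at 0.51 ± 0.16 (adjusted p = 0.126). In both genes CMV-GE11-siRE replicate 1 was the lowest of the 12 libraries. Beside these values, the macrophage markers Adgre1, C1qa and C1qb rose in lung with CMV-siRE, by 0.94, 0.71 and 0.92, and 3 of 4 erythroid markers fell. The summed erythroid level was 19026 to 25882 with CMV-scrR and 5381 to 9378 with CMV-siRE. The 6 macrophage markers together summed to 9050 to 14178 with CMV-scrR and 12710 to 14619 with CMV-siRE, which overlapped. Their part in the lung values was not tested.

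In spleen the genes that passed were Scd2 and Mvd. Scd2 had 3383, 3480.1, 4131 and 4155 with CMV-scrR, 5051, 5114, 5531 and 5241 with CMV-siRE and 4847, 5409, 4332 and 4987 with CMV-GE11-siRE. It rose by 0.47 ± 0.10 with CMV-siRE (adjusted p = 0.0135), 1 of 40 members beside 4.61% of all 16015 genes (2 members and 20.9% at an unadjusted p under 0.05), and passed without any 1 of the 12 libraries. With CMV-GE11-siRE it rose by 0.37 ± 0.10 (adjusted p = 0.0397), without overlap. Mvd, the decarboxylase that ends the mevalonate steps (chromosome 8, 122433601 to 122443422, minus strand), had 687, 527, 657 and 591 with CMV-scrR, 523, 544, 604 and 536 with CMV-siRE and 443, 439, 365 and 479 with CMV-GE11-siRE. Against the control Mvd fell by 0.51 ± 0.12 with CMV-GE11-siRE (adjusted p = 0.0264), so that 2 of 40 members passed there beside 5.76% of all genes, and 7 had an unadjusted p under 0.05 (24.5%).

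Each of these spleen calls with CMV-GE11-siRE was lost without 1 of several libraries, 4 for Mvd and 8 for Scd2, and the count was 1 without CMV-scrR replicate 3 or CMV-GE11-siRE replicate 4, among others, and 0 without CMV-scrR replicate 1, CMV-GE11-siRE replicate 1 or CMV-GE11-siRE replicate 3. No member passed in CMV-GE11-siRE against CMV-siRE (0.112% of all genes), and 5 had an unadjusted p under 0.05 (9.79%). Erythroid markers summed to 279691 to 409787 with CMV-scrR, 41015 to 106281 with CMV-siRE and 172096 to 355257 with CMV-GE11-siRE, and 3 of 4 fell with CMV-siRE. The macrophage marker Marco rose with both circuits, by 2.39 and 1.45. The 6 macrophage markers together summed to 16300 to 29346 with CMV-scrR, 24470 to 29086 with CMV-siRE and 19320 to 29230 with CMV-GE11-siRE, which overlapped. Their part in the spleen values was not tested.

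In kidney and thymus no member passed, beside 0 of 15105 genes in each kidney comparison and 1, 0 and 0 of 16421 genes in thymus (0.00609%, 0% and 0%). At an unadjusted p under 0.05 there were 3, 2 and 1 members in kidney (9.84%, 8.06% and 3.97% of all genes) and 4, 4 and 0 in thymus (5.65%, 9.44% and 2.81%), in the order CMV-siRE and CMV-GE11-siRE against CMV-scrR and CMV-GE11-siRE against CMV-siRE. Single libraries stood out instead. The genes named here were chosen after their values were seen. In kidney Fasn had 2371, 2961, 1562 and 1405 with CMV-scrR, 3562, 29474, 1515 and 1907 with CMV-siRE and 1978, 2784, 1935 and 3189 with CMV-GE11-siRE, Scd1 had 4276, 6935, 1528 and 1895 with CMV-scrR, 3292, 31209, 9297 and 5635 with CMV-siRE and 4432, 4118, 3539.9 and 14478 with CMV-GE11-siRE and Thrsp had 172, 154, 46.3 and 27.5 with CMV-scrR, 68.02, 2961, 69.8 and 102 with CMV-siRE and 134, 275, 61.1 and 101 with CMV-GE11-siRE. CMV-siRE replicate 2 was the highest library in each.

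Adipocyte markers were highest in the same library. In kidney Adipoq was 1356 in CMV-siRE replicate 2 and 0 to 136 in the other 11 libraries. The 9 adipocyte markers summed to 53.7 to 1467 with CMV-scrR, 63.8 to 16448 with CMV-siRE and 88.4 to 1588 with CMV-GE11-siRE, with that library the highest. Without that library the difference of Fasn between CMV-siRE and CMV-scrR was 0.13 ± 0.33 in place of 1.07 ± 0.71, that of Thrsp 0.03 ± 0.64 in place of 1.34 ± 1.07, and that of Scd1 0.87 ± 0.60 in place of 1.49 ± 0.68. Scd1 was also high in CMV-GE11-siRE replicate 4, at 14478, where Adipoq was at 0 and which stood apart in its mitochondrial share. As means of log2(value + 1), that library had 1.56 in the adipocyte markers and 9.72 in the fatty acid synthesis genes. CMV-siRE replicate 4 had 5.94 and 9.30. Among the controls, replicates 1 and 2 were above replicates 3 and 4 in both. The part of adipocytes in the kidney values was not tested.

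In thymus Thrsp had 35.7, 25.8, 35.2 and 183 with CMV-scrR, 167, 379, 31.4 and 153 with CMV-siRE and 92.6, 73.1, 155 and 171 with CMV-GE11-siRE. CMV-scrR replicate 4 was far above the other 3 controls, and also held the highest Adipoq value of the control group (133, against 4.11 to 18.4). CMV-siRE replicate 3 was as low as those 3 controls in Thrsp (31.4) and in Adipoq (4.34). Fasn had 5547, 4433, 4135 and 6032 with CMV-scrR, 8704, 10449, 6528 and 6190 with CMV-siRE and 6856, 4490.2, 7019 and 8392 with CMV-GE11-siRE, with all 4 CMV-siRE libraries above the controls and a difference of 0.65 ± 0.22 that did not pass (adjusted p = 0.699). It passed in limma without CMV-GE11-siRE replicate 4 (adjusted p = 0.0437), in a fit of only the 8 libraries compared, and with the mitochondrial share in the model (0.0277). With the adipocyte markers as a covariate the difference was 0.47 ± 0.22 (adjusted p = 0.958).

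**Figure D5:**
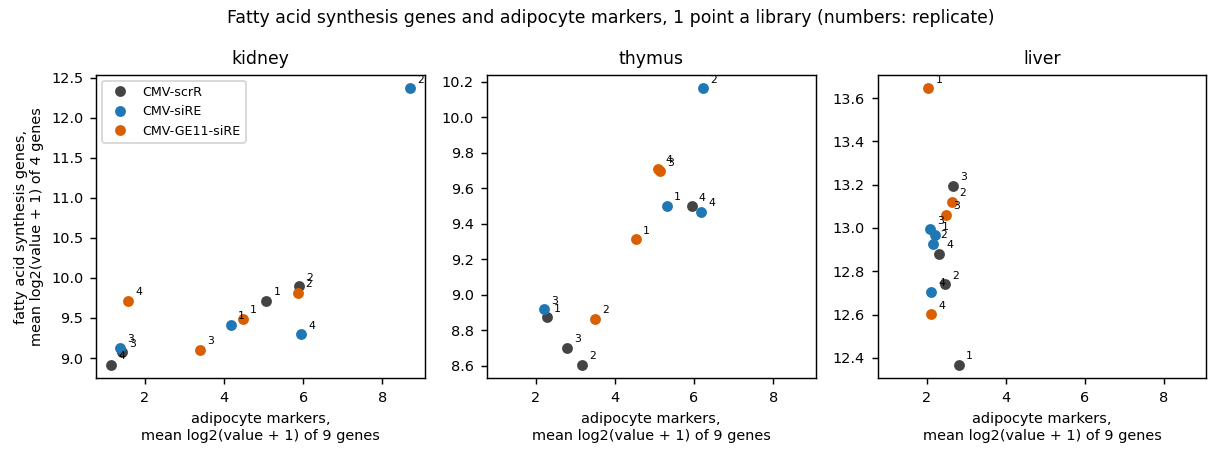
Mean log2(value + 1) of 4 fatty acid synthesis genes (vertical axis) against that of 9 adipocyte markers (horizontal axis) in each library of kidney, thymus and liver; colours are circuits, numbers replicates. Kidney CMV-siRE replicate 2, at 8.69 and 12.37, lies apart at the upper right, and the liver libraries lie between 2.04 and 2.81 in the adipocyte markers.

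Related genes outside the 40 were read as lists. In liver, of 9 genes of the liver X receptors and their targets, Abca1, which exports cholesterol from cells, rose with both circuits (0.66 and 0.42) and the receptor gene Nr1h2 fell with CMV-siRE (-0.46). Of 9 genes that build glycerolipids and sterol esters, Dgat2, the last step of triglyceride synthesis, fell with both (-0.38 and -0.38). Of 11 carbohydrate-responsive genes, Khk rose with CMV-GE11-siRE (0.44). None of 5 other genes of sterol synthesis and none of 8 genes for SREBP cleavage and its partners passed in liver. Over all genes, 4.04% passed there under CMV-siRE and 4.23% under CMV-GE11-siRE. Abca1 also rose with both circuits in spleen (0.71 and 0.78) and with CMV-GE11-siRE in tumour (1.08).

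In tumour with CMV-GE11-siRE, 5 of the 8 tested genes of glycerolipid and sterol ester assembly rose and none fell. They were Dgat1 (2.91), Lpin2 (1.58), Agpat2 (1.43), Mttp (1.43) and Soat1 (1.18), enzymes of triglyceride, phospholipid and cholesterol ester formation and the loading protein of lipoproteins. Of 7 tested liver X receptor genes 3 rose, Lpcat3 (2.17), Abca1 and Nr1h2 (0.99), and 2 fell, Mylip (-1.54) and Smpdl3a (-1.07). Of 5 other sterol synthesis genes Lbr rose (1.27), and of the 8 SREBP partners Erlin2 rose (1.09) and Sp1 fell (-0.55). These counts stand beside the 41.9% of all genes that passed there.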

How the data were processed

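Total RNA of 6 tissues of EGFR DEL19 mice was sequenced in 72 libraries, 4 for each of 18 groups of tissue and circuit. The authors deposited 1 table a tissue with a normalised signal per gene; DESeq2 is named, with no version or role, in the submitters' processing notes. No source used here gives the aligner, counter or genome build. Only 52.9% to 74.2% of low values were whole multiples of a common step, so no count test was run and depth is unknown. All 36047 mouse identifiers matched GENCODE M21.

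Genes that reached 10 in 4 or more of a tissue's 12 libraries were tested with limma 3.58.1 (R 4.3.3) on log2(value + 1), with a mean per circuit, a trend in the variance and Benjamini-Hochberg adjustment over all genes. The procedure was tested on simulated data with known changes and independent normal noise. Those data held no effects shared across a library, so the test does not cover such effects. Alternatives were a pseudocount of 0.1, no filter, 2 other scalings, only the 8 libraries compared, a replicate block, each library left out, and Dbp, Ddx3y, adipocyte markers or mitochondrial share as a covariate. Members and lists were chosen with earlier results of these data known. Values in every library are given for members that passed (up to 6 a direction in liver and tumour, 4 elsewhere) and for Srebf1, Srebf2, Insig1, Sqle, Fasn, Acaca, Scd1, Elovl6 and Thrsp in liver and tumour; others are said to be chosen after their values were seen. Promoters came from RefSeq on GRCm38.p6.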

Additional observations from a re-analysis of the deposited data

Results flagged for a closer look

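The members described gave 105 groups of 4 libraries. In 12, the gap of a library to its nearest neighbour was above Dixon's critical value, as a share of the group's range. Chance flags about 5% of such groups if values are normally distributed. The values here were not logged, and the genes of kidney, lung and thymus were chosen after their values were seen. The count of 12 can therefore not be compared with that 5%. In kidney the flagged values were Fasn at 29473.6 and Thrsp at 2960.69 in CMV-siRE replicate 2, the library with the highest Adipoq value. Scd1 was flagged there at 14477.7 in CMV-GE11-siRE replicate 4. In thymus Thrsp was 182.675 in CMV-scrR replicate 4. In liver they were Fasn at 33218.1 and Insig1 at 20096.4 in CMV-siRE replicate 1, Sqle at 5496.73 in CMV-siRE replicate 4 and Srebf2 at 4061.04 in CMV-scrR replicate 4. Of these, liver Fasn was the lowest of its group, and the other 3 were the highest. In tumour they were Insig1 at 335.625 in CMV-scrR replicate 2, Mlxipl at 10.5522 in CMV-scrR replicate 4, Stard4 at 261.51 in CMV-GE11-siRE replicate 2 and Thrsp at 24.3797 in CMV-siRE replicate 1, each the highest of its group.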

How the results depend on the processing

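The number of members that passed against CMV-scrR in limma depended on the setting. With Dbp, Ddx3y, adipocyte markers or the mitochondrial share as a covariate it was 0 in liver for both circuits, while the differences of the 4 liver calls kept their direction, with Elovl6 at 0.95 to 1.11, Insig2 at 0.39 to 0.50, Srebf1 at 0.50 to 0.63 and Fdft1 at 0.36 to 0.50. In spleen it was 0 for CMV-GE11-siRE with Ddx3y, adipocyte markers or the mitochondrial share, and 0 for CMV-siRE with adipocyte markers or the mitochondrial share. In thymus with CMV-siRE it was 5 with the mitochondrial share. In tumour it was 0 for CMV-GE11-siRE with the mitochondrial share, and for CMV-siRE 1 with Dbp and 2 with Ddx3y. With only the 8 libraries compared it was 11 for CMV-siRE and 0 for CMV-GE11-siRE in liver, 1 in lung and 2 in thymus for CMV-siRE, and 0 in spleen for CMV-GE11-siRE. With no filter it was 1 in liver for CMV-siRE and 1 in spleen for CMV-GE11-siRE, and 9 in tumour for CMV-GE11-siRE. Scaled to the column total or to the total without mitochondrial genes it was 1 in lung for CMV-siRE, and in tumour 37 and 21 for CMV-GE11-siRE against CMV-scrR and 36 and 8 against CMV-siRE. The cause was not tested.

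Members changed sign in tumour. Scaled to the column total, where the all-gene median was 2.11 in place of 0.05, all 12 members below 0 in CMV-GE11-siRE against CMV-scrR lay above it, among them Elovl6 1.63, Idi1 1.20, Stard4 1.25 and Thrsp 0.53, and against CMV-siRE the values were Acaca 1.39, Idi1 1.26, Scd1 1.47 and Stard4 1.42. With the mitochondrial share as a covariate 10 members went from above to below 0 and 5 from below to above; of those called, Cyp51 was at -0.64 and Stard4 at 0.23. Of 2508 alternatives for 114 single results, 127 lost a call, 47 gained one, 10 reversed, and 96 changed sign with no call either way.

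Leaving out 1 library at a time gave 0 to 10 members for CMV-siRE and 0 to 4 for CMV-GE11-siRE in liver, 0 to 1 for CMV-siRE in lung and in thymus, 1 in every case for CMV-siRE and 0 to 2 for CMV-GE11-siRE in spleen, and in tumour 0 to 2 for CMV-siRE, 7 to 13 for CMV-GE11-siRE and 0 to 4 for CMV-GE11-siRE against CMV-siRE.

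Within a tissue, same-numbered libraries of different circuits correlated between -0.28 and 0.27 in their deviations from the group means. The correlation was over 0.1 in 10 of 72 pairs, and 16 of 72 correlated best with their own number. No clear pairing by number was seen within tissues, but weak correlations cannot show that none exists. The labels do not say what the numbers mean. With the replicate number as a block 1 member passed for CMV-siRE and 0 for CMV-GE11-siRE in liver, 0 for CMV-GE11-siRE and 1 for CMV-siRE in spleen, and 12 for CMV-GE11-siRE in tumour.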
